A study of Mus musculus with 5 samples.

Results

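Striatal interneurons are the minority of neurons in the striatum that signal within it, and 10 genes that mark them are described here. The members were matched to the array by the platform's gene symbol, and 9 of the 10 were found, on 13 of the 26423 probes and among 17710 named genes. The cholinergic members Chat, Slc5a7, Slc18a3 and Lhx8 had 5 probes. Of the 6 GABAergic members, Pvalb, Calb2, Th, Htr3a and Kit had 8 probes, and Nos1 was not analysed here.

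The groups were HD_miR196a (3 mice) and HD (2 mice), all FVB males aged 12 months. Both groups carried a Huntington's disease transgene, GFP joined to human HTT exon 1 with 84 CAG repeats, and only HD_miR196a mice, bred by crossing the HD line with a miR-196a line, also carried a miR-196a precursor. A human ubiquitin promoter drove both transgenes, so neither was restricted to interneurons or to the striatum by its promoter. Each deposited value combines 2 technical repeats of 1 mouse, and every mouse analysed here carried the HD transgene.

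Cholinergic interneurons are large, tonically active cells that supply most of the acetylcholine of the striatum. They make it with choline acetyltransferase (Chat), load it into vesicles with the vesicular acetylcholine transporter (Slc18a3) and take choline back up through the transporter Slc5a7, while the LIM-homeodomain factor Lhx8 acts in the development of forebrain cholinergic neurons. GABAergic interneurons fall into classes named for a marker: parvalbumin (Pvalb) for fast-spiking cells, neuronal nitric oxide synthase (Nos1) for cells that also make somatostatin, calretinin (Calb2), tyrosine hydroxylase (Th) and the serotonin receptor subunit Htr3a for others. The receptor tyrosine kinase Kit is found on several interneuron classes and also on mast cells and other cells outside the brain.

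The overexpressed microRNA is shown because it is the only designed difference between the groups. The mature mouse form in RefSeq (GRCm38.p6), at chr11:96265187-96265208 and chr15:102973365-102973386, both on the plus strand, is given with its seed, bases 2 to 8, in capitals. The sources used here do not say from which species the transgene's precursor came.
mmu-miR-196a-5p: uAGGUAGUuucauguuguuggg

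Promoters of 3 cholinergic members, which were high in the same mice below, and of Th, which shared this only in part, are shown as the 250 bases before the annotated start. They are on the minus strand of GRCm38.p6, at chr14:32465910-32466159 for Chat, chr17:54299035-54299284 for Slc5a7, chr3:154330561-154330810 for Lhx8 and chr7:142899996-142900245 for Th. RefSeq promoters were matched for 8 of the 10 members. Slc18a3 lies inside the Chat gene in RefSeq, so its own window is not printed. Capitals mark matches, on either strand, to the motifs searched: TAATTA (a core bound by LIM-homeodomain factors), TGACGTCA (the cyclic AMP response element), CACGTG (an E-box) and TATAAA (the TATA box), none of which overlapped another.
Chat: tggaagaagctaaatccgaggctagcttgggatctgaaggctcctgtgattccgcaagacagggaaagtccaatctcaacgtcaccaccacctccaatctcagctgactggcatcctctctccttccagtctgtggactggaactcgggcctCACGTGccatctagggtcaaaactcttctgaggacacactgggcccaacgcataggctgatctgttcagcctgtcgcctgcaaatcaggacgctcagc
Slc5a7: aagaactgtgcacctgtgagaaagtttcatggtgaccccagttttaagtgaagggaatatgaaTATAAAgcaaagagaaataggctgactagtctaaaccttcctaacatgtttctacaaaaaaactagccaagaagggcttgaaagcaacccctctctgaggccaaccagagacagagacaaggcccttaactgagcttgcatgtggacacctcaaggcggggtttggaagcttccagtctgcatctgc
Lhx8: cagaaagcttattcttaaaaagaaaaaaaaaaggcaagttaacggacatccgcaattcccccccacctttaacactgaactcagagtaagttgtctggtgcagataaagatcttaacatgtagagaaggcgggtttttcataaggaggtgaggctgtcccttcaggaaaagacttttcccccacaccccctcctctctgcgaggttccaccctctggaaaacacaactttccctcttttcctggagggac
Th: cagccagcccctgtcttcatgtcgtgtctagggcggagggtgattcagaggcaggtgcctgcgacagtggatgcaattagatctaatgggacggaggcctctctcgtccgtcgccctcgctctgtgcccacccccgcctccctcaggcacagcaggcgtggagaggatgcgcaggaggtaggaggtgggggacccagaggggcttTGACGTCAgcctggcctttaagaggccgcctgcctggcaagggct

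TAATTA was in the window of 0 of the 8 members and in 4.84% of 32851 promoters. TGACGTCA was found only in the Th window among these members and in 1.55% of all promoters, CACGTG only in that of Chat and in 6.02%, and TATAAA only in that of Slc5a7 and in 12.4%. A match describes these letters and is no evidence of binding.

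None of the interneuron markers passed the test between HD_miR196a and HD mice, and the values of the groups overlapped at every member probe. At a Benjamini-Hochberg adjusted p under 0.05, limma called 0 of the 13 member probes, and 0 of the 26423 probes of the whole array (0%). At an unadjusted p under 0.05 it found 4.16% of all probes (1099, of which 558 were higher and 541 lower in HD_miR196a mice) and 0 of the 13. With trend and robust settings it called 3 probes, none of a member. The HD_miR196a and HD mice did not overlap at 20.3% of all probes and at 0 of the member probes. Of these, 10 were higher and 3 lower in HD_miR196a mice, with a median difference of 0.06 on the log2 scale, against 0.00 over all probes. The 10 are not separate genes, as they include 2 probes each of Lhx8 and Calb2 and 3 of Htr3a. With no scaling, Slc5a7, Slc18a3, Th and the brightest Htr3a probe turned lower. The array showed a larger contrast among single mice, in which the cholinergic markers and Calb2 were high in mouse 1 of each group and low in mouse 2 of each group.

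Deposited array medians were between 160.0 and 185.6, and quantile normalization set them equal. Values below are log2 of the normalized intensity unless they are called deposited, and differences are HD_miR196a minus HD. As a guide to background, 544 probes of olfactory receptor genes, mostly silent in striatum, had a 95th percentile of 8.31. By the mean over the 5 mice, the brightest probe of 6 of the 9 genes lay above it, and those of Chat, Slc18a3 and Htr3a did not. Of 12 measured genes of medium spiny neurons, the main cells of the striatum, 11 had means above that level, and Drd2, at the floor in 1 mouse, did not. Their summed intensity was 91152 to 97788 in HD_miR196a mice and 71150 to 79413 in HD mice. Of the 12, 10 were higher and 2 lower in HD_miR196a mice, and 0 were called. An unadjusted limma p under 0.05 was found for 7 of the 12, all higher, against 4.16% of all probes. The groups did not overlap at 8 of the 12, against 20.3% of all probes. Of the glial and vascular genes, 5 of 5 for oligodendrocytes (median 0.28), 3 of 5 for astrocytes, 3 of 5 for microglia and 4 of 5 for endothelium were higher in HD_miR196a mice, and 0 were called. One of the astrocyte genes counted as higher, Slc1a3, was at the floor in HD mouse 1 alone, and the other 4 were 2 higher and 2 lower. The part of these cells in the marker values was not tested. In bulk tissue, fewer cells of a type and less RNA per cell cannot be told apart.

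Chat, which makes acetylcholine, measured 6.34, 5.70 and 6.23 in HD_miR196a mice 1 to 3, against 6.36 and 5.93 in HD mice 1 and 2. The HD mice lay within the range of the HD_miR196a mice or just above it. The difference was -0.05 ± 0.25 (SE, 95% interval -0.71 to 0.61, limma adjusted p = 0.996). All of these levels were within the range of olfactory receptor probes.

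Slc18a3, the vesicular transporter encoded within the Chat gene, measured 8.60, 7.80 and 8.51 in HD_miR196a mice, against 8.57 and 7.79 in HD mice. HD_miR196a mouse 2 and HD mouse 2 were low and the other mice were close together. The difference was 0.12 ± 0.36 (SE, 95% interval -0.81 to 1.05, limma adjusted p = 0.994). The choline transporter Slc5a7 gave 10.15, 9.48 and 10.07 in HD_miR196a mice, against 10.26 and 9.44 in HD mice. The same 2 mice were low, and the groups overlapped completely. Its difference was 0.05 ± 0.34 (SE, 95% interval -0.83 to 0.93, limma adjusted p = 1).

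Lhx8, the developmental factor, varied most among the cholinergic members. It measured 10.19, 8.73 and 9.47 in HD_miR196a mice, against 10.17 and 8.02 in HD mice. HD_miR196a mouse 1 and HD mouse 1 were nearly equal and highest, and HD mouse 2 was lowest, 4.44-fold below HD mouse 1. The group difference was 0.36 ± 0.78 (SE, 95% interval -1.66 to 2.39, limma adjusted p = 0.992). It was 1.44 without HD mouse 1 and -0.71 without HD mouse 2, so its sign rests on which HD mouse is kept. A second Lhx8 probe gave the same order of mice, with 9.46, 8.35 and 8.90 in HD_miR196a mice, against 9.39 and 7.76 in HD mice. In deposited intensities the brighter probe read 1030, 400 and 694 in HD_miR196a mice, against 1257 and 280 in HD mice.

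**Figure D1:**
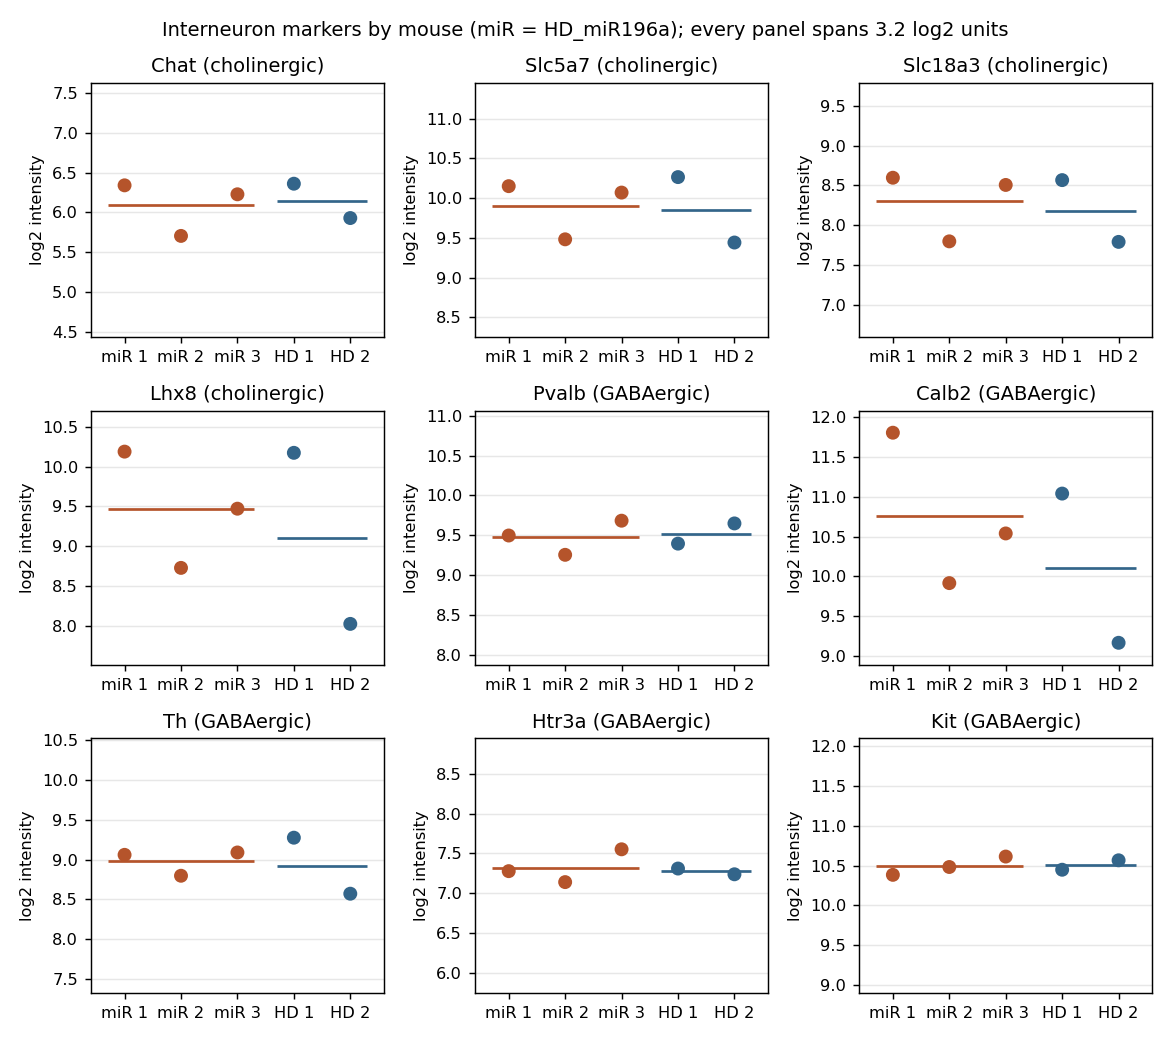
Log2 normalized intensity of the brightest probe of each measured marker in every mouse, with HD_miR196a mice (miR, brown) left of HD mice (blue). Horizontal lines are group means and every panel covers the same span. Lhx8 and Calb2 spread by over 2 log2 units between mice while Kit spread by 0.23, and the groups overlapped in each panel.

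Among the GABAergic members, Calb2 spread furthest. Calretinin, its product, is a calcium-binding protein of the EF-hand family. Its brighter probe measured 11.81, 9.91 and 10.54 in HD_miR196a mice, against 11.04 and 9.16 in HD mice. HD_miR196a mouse 1 was highest and HD mouse 2 lowest, a 6.24-fold range across the 5 mice. The difference was 0.65 ± 0.80 (SE, 95% interval -1.44 to 2.75, limma adjusted p = 0.98), and it was 1.59 without HD mouse 1 and -0.29 without HD mouse 2. A second probe kept the same order with an 8.21-fold range, at 11.86, 9.65 and 10.50 in HD_miR196a mice, against 11.00 and 8.82 in HD mice.

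Th, the first enzyme of dopamine synthesis, measured 9.06, 8.80 and 9.09 in HD_miR196a mice, against 9.28 and 8.57 in HD mice. It was highest and lowest in the 2 HD mice, and the HD_miR196a mice lay between them. The difference was 0.06 ± 0.24 (SE, 95% interval -0.58 to 0.70, limma adjusted p = 0.996). In striatal tissue Th RNA can also be judged against genes of dopaminergic and noradrenergic neurons, of which 10 of 10 were measured. Their summed intensity was 4326 to 5348 in HD_miR196a mice and 4245 to 5373 in HD mice, none was at the floor, 6 were higher and 4 lower in HD_miR196a mice and 0 were called. The dopamine transporter Slc6a3 ranged over 0.19 between mice and Ddc, which makes dopamine from its precursor, over 1.41. Ddc measured 9.78, 9.26 and 9.44 in HD_miR196a mice, against 10.09 and 8.67 in HD mice. Like Th, it was highest in HD mouse 1 and lowest in HD mouse 2, whereas Slc6a3 was lowest in HD mouse 1 (9.62). Both are named as examples. Nr4a2 had the widest range of the list, 3.22. It was low in mouse 1 and high in mouse 2 of each group, with HD_miR196a mouse 3 between them. This order was also that of 7 of 9 cortical projection neuron genes described below. The groups did not overlap at 4 of the 10 genes, against 20.3% of all probes. The part of these 10 genes in the Th values was not tested.

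Pvalb, the marker of fast-spiking interneurons, did not share the pattern of the cholinergic genes. It measured 9.50, 9.25 and 9.68 in HD_miR196a mice, against 9.39 and 9.65 in HD mice. HD mouse 2, lowest for Lhx8, had the second highest Pvalb value. The difference was -0.04 ± 0.17 (SE, 95% interval -0.49 to 0.40, limma adjusted p = 0.996).

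Kit was the steadiest member. It measured 10.38, 10.48 and 10.61 in HD_miR196a mice, against 10.45 and 10.57 in HD mice, and its difference of -0.01 ± 0.11 (SE) had the narrowest interval of the 13 probes, from -0.31 to 0.28 (limma adjusted p = 1). Of 6 mast cell genes 5 were measured, 1 of them above the olfactory receptor level, and their summed intensity was 848 to 1001 in HD_miR196a mice and 758 to 919 in HD mice. All 5 were higher in HD_miR196a mice, by a median of 0.09, and 0 were called.

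Htr3a, a subunit of the ionotropic serotonin receptor, had 3 probes, all within the range of olfactory receptor probes, and they disagreed. The brightest measured 7.27, 7.14 and 7.55 in HD_miR196a mice, against 7.31 and 7.24 in HD mice, a difference of 0.05 ± 0.15 (SE). The second differed by 0.01 ± 0.16. The dimmest measured 5.22, 4.34 and 4.57 in HD_miR196a mice, against 4.39 and 3.57 in HD mice, a difference of 0.73 ± 0.37 (SE, 95% interval -0.24 to 1.70, limma adjusted p = 0.979). It had the smallest unadjusted p of the members (0.11), and HD_miR196a mouse 2 lay below HD mouse 1. Of its 5 values 4 were below the olfactory receptor median of 5.03, and with the floor set there the difference was 0.065 ± 0.078 (SE).

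**Figure D2:**
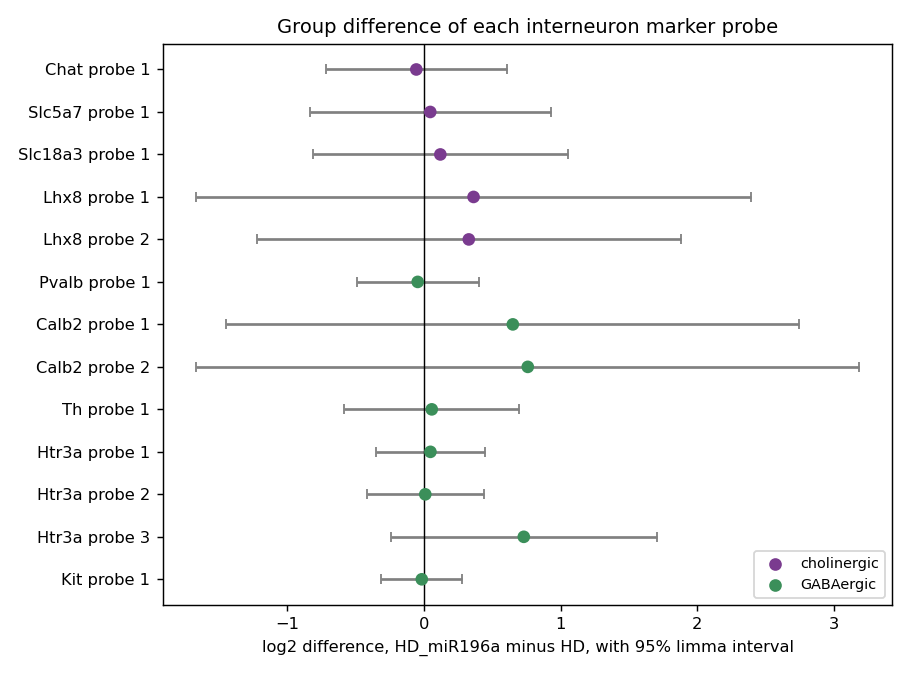
Log2 difference of each of the 13 member probes, HD_miR196a minus HD (points), with 95% intervals from limma (bars); probe 1 of a gene is its brightest. Every interval covers 0, and those of Lhx8 and Calb2 are the widest.

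The classes did not separate by group. Each gene was set to its deviation from its own mean over the 5 mice, since levels of different probes cannot be compared, and averaged over its class. The cholinergic mean was 0.43, -0.46 and 0.18 in HD_miR196a mice, against 0.45 and -0.59 in HD mice, a difference of 0.12. Leaving out HD mouse 1 made it 0.64, leaving out HD mouse 2 made it -0.40, and leaving out HD_miR196a mouse 1 made it -0.07. The GABAergic mean was 0.25, -0.23 and 0.15 in HD_miR196a mice, against 0.14 and -0.31 in HD mice, a difference of 0.14 that was 0.37 without HD mouse 1 and -0.09 without HD mouse 2. With no scaling the differences were -0.076 for the cholinergic and -0.078 for the GABAergic mean, so the sign of neither is settled. Cholinergic minus GABAergic gave 0.17, -0.23 and 0.03 in HD_miR196a mice (mean -0.01 ± 0.21, SD, n = 3), against 0.31 and -0.28 in HD mice (mean 0.01 ± 0.42, SD, n = 2). The group difference of -0.02 was smaller than either SD, and no test was made of these averages. It was 0.27 without HD mouse 1 and -0.32 without HD mouse 2.

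Without Calb2, an average chosen after the values were seen, the other 4 GABAergic genes gave -0.01, -0.15 and 0.17 in HD_miR196a mice, against 0.04 and -0.06 in HD mice, a difference of 0.012. HD_miR196a mouse 3 was highest and HD_miR196a mouse 2 lowest, and the HD mice lay between them.

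The order of the mice was shared by 5 of the 9 genes. In Chat, Slc5a7, Slc18a3, Lhx8 and Calb2, both HD_miR196a mouse 1 and HD mouse 1 were above HD_miR196a mouse 3, which was above both HD_miR196a mouse 2 and HD mouse 2. This order was picked out after the values were seen, and 5.92% of all probes followed it. Of the 13 member probes 7 did, including both of Lhx8 and both of Calb2. For Chat, Slc5a7 and Slc18a3 the step from mice 1 to HD_miR196a mouse 3 was small. The lower mouse 1 was at 6.34, 10.15 and 8.57, and HD_miR196a mouse 3 at 6.23, 10.07 and 8.51. In these genes the clearer contrast was the low value of mouse 2 of each group. Th missed the order because HD_miR196a mouse 3 was just above HD_miR196a mouse 1. Pvalb, Kit and the brightest Htr3a probe had other orders.

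The spread was large for Lhx8 and Calb2 in relation to the array. A range above 1 across the 5 mice was found for 15.7% of all probes and for 3.62% of the 10474 probes above the olfactory receptor level. Of the 9 genes, 2 passed it on their brightest probe. Among the brighter probes, 0.506% had a larger range than the brighter Lhx8 probe and 0.334% a larger range than that of Calb2. For Slc5a7 the share was 6.26%, for Th 9.48%, for Pvalb 30.9% and for Kit 73.5%. The median range of these brighter probes was 0.33.

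**Figure D3:**
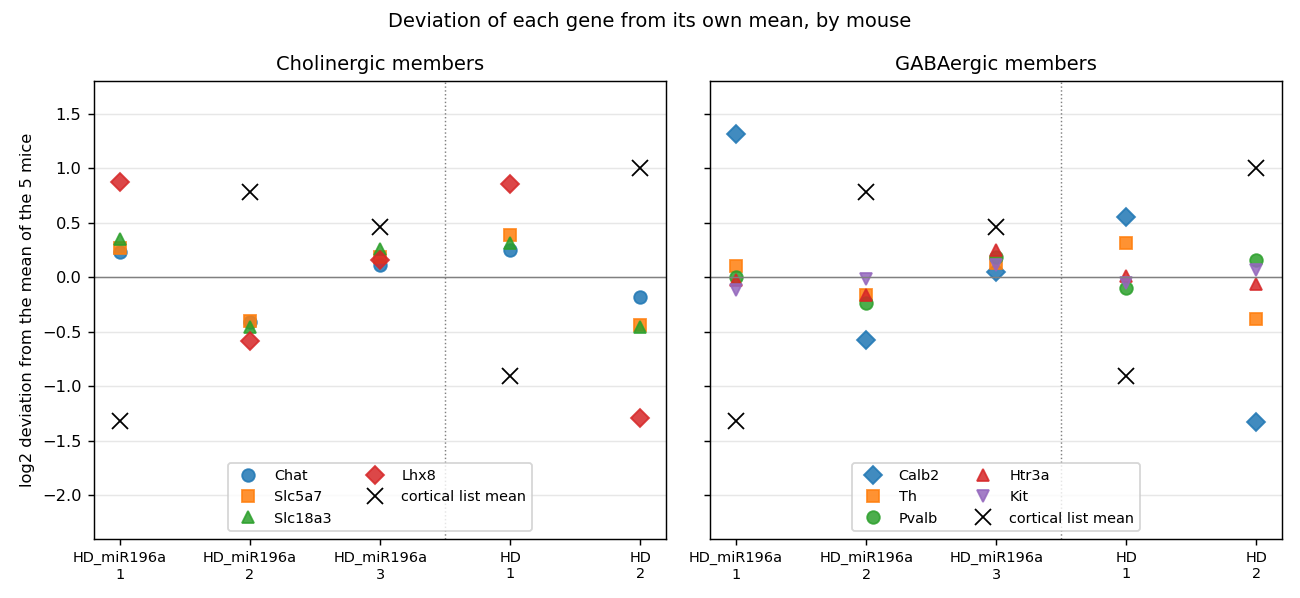
Log2 deviation of each measured marker (brightest probe) from its mean over the 5 mice, for cholinergic (left) and GABAergic (right) members, with HD_miR196a mice 1 to 3 left of the dotted line and HD mice 1 and 2 right of it. Crosses are the mean over 9 cortical projection neuron genes. They were at -1.32 in HD_miR196a mouse 1 and -0.91 in HD mouse 1, where the cholinergic markers and Calb2 were above their means. In HD_miR196a mouse 3 these markers were also above their means, and the cross was at 0.46.

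Genes of neighbouring regions also differed between these mice. Cortical projection neuron genes were measured for 9 of 10, of which 7 were above the olfactory receptor level. Their mean deviation was -1.32, 0.78 and 0.46 in HD_miR196a mice, against -0.91 and 1.00 in HD mice. It ran opposite to the cholinergic mean in mice 1 and 2 of each group, while both were above 0 in HD_miR196a mouse 3. In 7 of the 9 the order of the mice was the reverse of that of Lhx8, an order followed by 5.87% of all probes. Between the groups 5 were higher and 4 lower in HD_miR196a mice, and 0 were called. The vesicular glutamate transporter Slc17a7 measured 8.47, 11.76 and 11.05 in HD_miR196a mice, against 8.82 and 11.87 in HD mice. The summed intensity of the list was 4396 to 20684 in HD_miR196a mice and 4746 to 23160 in HD mice, with no gene at the floor in any mouse. These ranges overlapped almost wholly, so the spread lay within both groups.

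Thalamic and pallidal genes, with 8 of 8 measured and Shox2 at the floor in some mice, were higher in HD_miR196a mice for 5 and lower for 3, with 0 called, and had summed intensities of 12523 to 17353 in HD_miR196a mice and 13597 to 18466 in HD mice. Slc17a6, the vesicular glutamate transporter of thalamic and other subcortical neurons, measured 11.58, 9.70 and 10.96 in HD_miR196a mice, against 11.13 and 9.79 in HD mice. Slc17a6, chosen after its values were seen, and Zic1 were the 2 of the 8 genes that followed the order of mice seen for Lhx8. Rora, a nuclear receptor of thalamic neurons, did not, at 9.98, 10.35 and 10.45 in HD_miR196a mice, against 10.18 and 10.35 in HD mice. Tcf7l2 measured 9.20, 8.46 and 9.09 in HD_miR196a mice, against 8.73 and 7.75 in HD mice. It was low in mouse 2 of each group, and missed the order because HD_miR196a mouse 3 was above HD mouse 1. The part of cortical or subcortical tissue in the marker values was not tested.

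Many of the other genes of cholinergic neurons, but not all, were spread over the mice in a like way. Of 12 listed partners 10 were measured, 0 passed the test in either direction, 5 were higher and 5 lower in HD_miR196a mice, and the median difference was 0.00. The smallest unadjusted p-values were those of the homeobox gene Gbx1, which was dim (0.43 ± 0.26, SE), the LIM-homeodomain factor Isl1 (-0.27 ± 0.25), the choline transporter-like gene Slc44a1 (0.20 ± 0.20) and the homeobox gene Gbx2 (0.43 ± 0.50), each with a limma adjusted p of 0.979. The order of mice seen for Lhx8 held for 6 of the 10 partners, among them Bche and Prima1, which were dim. It did not hold for the bright Isl1, at 10.42, 9.90 and 10.08 in HD_miR196a mice, against 10.70 and 10.10 in HD mice. Examples of the 6, chosen after their values were seen, are Ngfr and Ache. Ngfr is the low-affinity neurotrophin receptor of basal forebrain cholinergic neurons, and Ache breaks down acetylcholine. Ngfr measured 10.96, 10.05 and 10.68 in HD_miR196a mice, against 11.01 and 9.56 in HD mice. Ache measured 10.75, 9.95 and 10.44 in HD_miR196a mice, against 10.71 and 9.94 in HD mice, so both were low in mouse 2 of each group.

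Acetylcholine receptors, which mostly sit on the cells that receive the signal, were measured for 14 of 14 genes, of which 1 followed the order and 2 its reverse. None passed the test, 9 were higher and 5 lower in HD_miR196a mice, and the median difference was 0.05. The first 4 by p were the nicotinic subunit Chrna7 (0.13 ± 0.10, SE), the dim muscarinic receptor Chrm5 (-0.22 ± 0.21) and the nicotinic subunits Chrnb3 (0.08 ± 0.09) and Chrnb2 (-0.14 ± 0.17). Chrm1, a muscarinic receptor of projection neurons, chosen after its values were seen, was low in mouse 1 of each group, at 8.89, 10.05 and 9.74 in HD_miR196a mice, against 9.14 and 10.28 in HD mice.

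Partners of GABAergic interneurons went both ways. Of 28 listed 23 were measured, 0 were called, 11 were higher and 12 lower in HD_miR196a mice, and the median difference was -0.01. The first 4 by p were Gad1, a GABA-synthesizing enzyme with a dim probe (0.91 ± 0.26, SE), Cox6a2, a subunit of cytochrome c oxidase (0.41 ± 0.23, SE), and the homeobox genes Dlx5 (-0.16 ± 0.11) and Dlx2 (-0.19 ± 0.13). Each had a limma adjusted p of 0.979. Gad1 measured 3.35, 2.87 and 3.28 in HD_miR196a mice, against 2.59 and 1.92 in HD mice, all below the olfactory receptor median of 5.03, and was the one gene of the list with an unadjusted p under 0.05. The bright Gad2 probe, for the other GABA-synthesizing enzyme, differed by -0.02 ± 0.24 (SE).

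Within this list 5 genes followed the order of mice seen for Lhx8 and 3 its reverse. Lhx6, a LIM-homeodomain factor of interneurons born in the medial ganglionic eminence, measured 10.86, 9.61 and 10.11 in HD_miR196a mice, against 10.55 and 9.27 in HD mice. The peptide gene Cck, strongly expressed in cortex, measured 11.05, 13.64 and 13.01 in HD_miR196a mice, against 11.18 and 13.97 in HD mice. Vip measured 6.57, 9.56 and 9.56 in HD_miR196a mice, against 7.89 and 10.02 in HD mice. Lhx6 was high where Cck and Vip were low, and all 3 were chosen after their values were seen. Somatostatin, Sst, the peptide of the Nos1 class of interneurons, measured 14.76, 15.12 and 15.10 in HD_miR196a mice, against 14.74 and 15.21 in HD mice, slightly higher where Lhx8 was low.

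**Figure D4:**
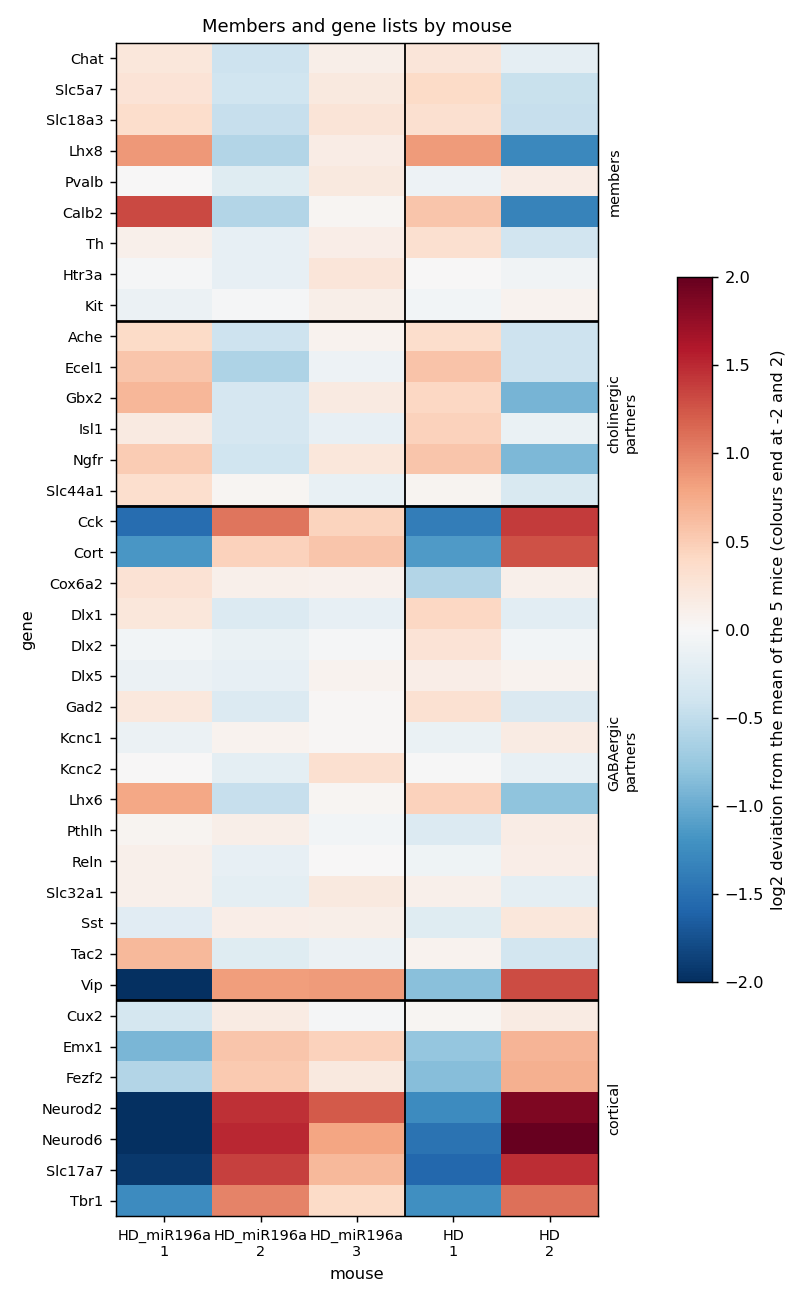
Log2 deviation from the mean over the 5 mice (colour, ending at -2 and 2) for the 9 measured markers and for genes above the olfactory receptor level in the lists of cholinergic partners, GABAergic partners and cortical projection neurons, with HD_miR196a mice left of HD mice. Lhx8, Calb2, Ngfr and Lhx6 are red in mouse 1 of each group, where Cck, Vip and the cortical genes other than Cux2 in HD mouse 1 are blue.

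The genes whose profile over the 5 mice was most like that of Lhx8, by the root mean square difference of centred log2 values among 9331 named probes above the olfactory receptor level, were Igsf1 (0.089), Gpr101 (0.106) and Baiap3 (0.141). Igsf1 measured 12.06, 10.46 and 11.31 in HD_miR196a mice, against 11.94 and 10.01 in HD mice. For Calb2 they were Igsf1 (0.237), Lhx8 itself (0.246) and Ctxn3 (0.265). Calb2 was clearly higher in HD_miR196a mouse 1 than in HD mouse 1, while Lhx8 was nearly equal in those mice.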

How the data were processed

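Striatal RNA of 5 mice was measured on single-colour arrays, amplified and labelled with Cy5, per the labels' protocols. The authors deposited 1 linear intensity per probe and mouse, with 2 technical repeats combined. Values slightly below 0 show that background had been subtracted, and the sources used here do not name the scanner, its software or any scaling. Groups and mouse numbers came from the sample titles.

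Deposited intensities were quantile normalized, floored at 1 and log2 transformed. Under R 4.3.3, limma 3.58.1 (lmFit, then eBayes) fitted all 26423 probes, two-sided, with Benjamini-Hochberg adjustment over all probes. The fit had 3 degrees of freedom left among mice and 1.75 from the prior. It was also run on simulated data in which probes varied independently. That run did not cover deviations shared by many genes of 1 mouse. The number of arrays limits the precision. Of the probes, 20377 had a platform symbol. Against RefSeq names (GRCm38.p6) 18213 matched directly, 2126 by synonym and 38 did not. The brightest probe, by the mean over all mice, stands for a gene.

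The members and lists were chosen with earlier results of these data known. All members are named, with up to 4 genes of each partner or receptor list by smallest p, and for members ranging over 1 on the log2 scale the 3 most alike probes. Other genes are named as examples where the text says so, or as list or background genes. The alternatives are given with their effects in the closing section.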

Additional observations from a re-analysis of the deposited data

How the results depend on the processing

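No member probe tested was called under any of the 13 alternatives. The 19817 brighter probes held 12 of the 13 member probes, and the 13212 brightest held 9, none of Chat or Htr3a. Over all probes the count of 0 became 2 when the floor was set to the median olfactory receptor probe, 1 among those 19817, 3 with trend and robust settings, and 0 to 3 with 1 mouse left out. Fits without 1 HD mouse assume that the other varies like the HD_miR196a mice. Of 115 gene values under alternatives, 92 kept their direction and 23 changed sign, none called in either fit and the cause not tested. The 92 include values that could not change, since the brighter-probe filters and the trend and robust settings leave the difference itself as it was. The floor at the median olfactory receptor probe also left these differences unchanged, so the 92 is no measure of stability. With no scaling, which shifted the median over all probes by -0.20, the difference was -0.178 for Slc5a7, -0.067 for Slc18a3, -0.160 for Th and -0.119 for Htr3a. Median centring gave -0.0061 for Slc5a7, and leaving out mouse 1 of each group gave 0.037 for Chat.

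With 1 mouse left out the differences ranged from -0.27 to 0.16 for Chat, -0.36 to 0.46 for Slc5a7, -0.27 to 0.51 for Slc18a3, -0.71 to 1.44 for Lhx8, -0.17 to 0.083 for Pvalb, -0.29 to 1.59 for Calb2, -0.29 to 0.41 for Th, -0.066 to 0.14 for Htr3a and -0.074 to 0.045 for Kit. Cholinergic minus GABAergic ranged from -0.315 to 0.274. The cholinergic mean ranged from -0.40 to 0.64 and the GABAergic mean from -0.088 to 0.37. Of 42 class values under alternatives, 40 moved by less than 1 SD between mice, but those SDs (0.57, 0.28 and 0.29) exceed the differences, and 13 changed sign: 3 of the cholinergic mean, 2 of the GABAergic mean and 8 of cholinergic minus GABAergic. The 40 include those with the floor at the median olfactory receptor probe, which did not move at all.

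The labels give both groups mice numbered 1 and 2 without saying that equal numbers pair them. Deviations from group means correlated across probes at 0.236 for mice 1 and 0.17 for mice 2. With 2 HD mice, their deviations are equal and opposite, so these 2 values rest on the same HD profile and are not independent. With the mouse number as a replicate block, which rests on 4 mice, 0 probes were called. Its differences equal those without HD_miR196a mouse 3, so the counts of gene and class values above repeat them. The difference was -0.037 for Slc5a7, -0.066 for Htr3a and 0.76 for Calb2, and 3 of 13 member probes (both of Calb2 and the dimmest of Htr3a) had an unadjusted p under 0.05, against 2020 of 26423 overall. Low signal limits Chat, Slc18a3 and Htr3a.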
